A study of Mus musculus with 6 samples.

Results

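Protocadherin genes were examined in EGFP-positive cells that had been sorted from main olfactory epithelium of mice at E18.5. The family was taken as the genes whose symbol starts with Pcdh, each read from a probe set that the platform annotation gives to that 1 gene. Of 70 such genes in RefSeq, 34 had a probe set of their own, out of 19938 genes tested. They comprised all 22 genes of the beta cluster (Pcdhb1 to Pcdhb22) and all 12 non-clustered genes. The 14 alpha genes shared a single probe set and could not be told apart, and the annotation listed no probe set for any of the 22 gamma genes, so the clustered members compared here are all beta genes.

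The groups were 3 arrays of Fezf1-/- cells and 3 arrays of Fezf1+/- cells, on a C57BL/6 background. In both genotypes at least 1 Fezf1 allele carried EGFP under the endogenous Fezf1 promoter, so the controls too lack 1 working copy of Fezf1, a zinc-finger transcription factor gene. The sort follows use of that promoter and is not limited to 1 cell type. The labels do not say whether the replicates were separate embryos, litters or pools, so p-values here reflect only how far these samples vary, which may be technical. Levels are log2 signals of Affymetrix Mouse Gene ST arrays, and differences are Fezf1-/- minus Fezf1+/-. A gene was called at an adjusted p below 0.05 by limma, with Benjamini-Hochberg adjustment over all genes.

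Protocadherins are transmembrane proteins with extracellular cadherin repeats that bind like molecules on neighbouring cells. The clustered genes lie in neighbouring arrays on chromosome 18. Each neuron uses a small set of them, chosen largely at random from separate promoters, and the resulting combination gives the cell a surface identity with which its processes recognise each other. In the olfactory system the clustered genes are known for shaping the arbors that sensory axons form in the glomeruli of the bulb. The non-clustered genes are expressed in patterns set by region and cell type and act in axon growth, cell sorting and synapses. An array of sorted cells averages over many neurons, so it shows the level of each gene in the population and not the choice made by a cell.

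Fezf1 itself stood at 5.56, 5.92 and 6.28 on the Fezf1-/- arrays (here and below in the order of replicates 1, 2 and 3), against 11.25, 11.12 and 11.30 on the Fezf1+/- arrays. It fell by 5.31 (SE 0.19, limma adjusted p = 0.000755). Of all 19938 genes, 110 were called, or 0.552%. Fezf1-/- replicate 1 stood apart, with correlations across genes of 0.905 to 0.935 to the other arrays, against 0.975 to 0.995 among those 5. The 12 markers of mature olfactory neurons averaged 9.59 to 10.14 on the Fezf1+/- arrays and 8.84 and 8.97 on Fezf1-/- replicates 2 and 3. They averaged 7.43 on Fezf1-/- replicate 1, where 11 of them had their lowest value. The 11 measured markers of mesenchyme and bone averaged 9.97 there, against 6.31 to 7.43 on the other arrays, and the 10 myeloid markers 7.37 there, against 5.19 to 5.39 on the other arrays. All members of these 2 lists had their highest value on that array, as did all 9 endothelial markers, which averaged 6.83 there and 4.94 to 5.52 elsewhere. Results are therefore given for all 6 arrays and for the 5 without Fezf1-/- replicate 1. In such bulk samples fewer cells of a type and less RNA per cell cannot be told apart.

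Over all 6 arrays, no protocadherin passed the test. Of the 34 members 0 were called by limma, where 0.552% of all genes were. At an unadjusted p below 0.05 stood 1 member on the higher side, Pcdh20, beside 4.23% of all genes, and 1 on the lower side, Pcdh19, beside 5.25% of all genes. In 1 member, Pcdh20, the 3 Fezf1-/- values lay wholly above the 3 Fezf1+/- values, beside 9.72% of all genes. In 5 members, Pcdh10, Pcdh19, Pcdhb1, Pcdhb14 and Pcdhb17, they lay wholly below, beside 8.77% of all genes. The median difference was -0.05 over the 34 members and 0.02 over all genes.

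Without Fezf1-/- replicate 1, Pcdh8 was the only member called, and it was higher in Fezf1-/- cells, in a fit that called 2.66% of all genes, 0.993% as higher. An unadjusted p below 0.05 was reached by 5 members on the higher side, Pcdh7, Pcdh8, Pcdh9, Pcdh20 and Pcdhb3, beside 7.63% of all genes. It was reached by 2 on the lower side, Pcdh19 and Pcdhb1, beside 8.68% of all genes. In 5 members the remaining Fezf1-/- values lay wholly above the Fezf1+/- values, beside 19.9% of all genes, and in 6 wholly below, beside 16.3%.

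Upstream sequence is shown for Pcdh8, Pcdh19 and Pcdh20, the 3 members that were called in at least 1 of the fits. The sequences are the 250 bases before the annotated start, 5′ to 3′ on the gene's strand, from RefSeq on GRCm38.p6. Capitals mark TATAAA, the TATA box word, and CGCT, the core word of the element shared by promoters of clustered protocadherins, each searched on both strands (CGCT reads AGCG on the opposite strand). The Pcdh8 window is chr14:79771313-79771562 on the minus strand, the Pcdh19 window chrX:133688994-133689243 on the minus strand and the Pcdh20 window chr14:88471397-88471646 on the minus strand.
Pcdh8: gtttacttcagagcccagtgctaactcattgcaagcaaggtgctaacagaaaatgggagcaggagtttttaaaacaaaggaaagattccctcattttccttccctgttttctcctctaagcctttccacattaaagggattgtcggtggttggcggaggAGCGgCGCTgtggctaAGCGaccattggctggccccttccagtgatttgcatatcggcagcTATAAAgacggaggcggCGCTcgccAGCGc
Pcdh19: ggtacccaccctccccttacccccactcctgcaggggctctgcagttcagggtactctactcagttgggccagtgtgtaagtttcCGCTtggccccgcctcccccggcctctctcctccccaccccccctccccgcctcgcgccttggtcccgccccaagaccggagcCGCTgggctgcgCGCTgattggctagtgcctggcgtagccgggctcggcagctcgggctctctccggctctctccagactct
Pcdh20: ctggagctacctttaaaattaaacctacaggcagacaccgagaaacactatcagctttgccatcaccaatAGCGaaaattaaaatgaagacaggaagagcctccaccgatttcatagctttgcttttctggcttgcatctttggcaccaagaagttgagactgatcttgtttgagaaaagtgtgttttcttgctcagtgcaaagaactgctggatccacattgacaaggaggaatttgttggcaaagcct

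The 3 windows differ in composition. The share of G and C was 51.2% for Pcdh8, 69.2% for Pcdh19 and 42.4% for Pcdh20, with a median of 52.4% over the 32851 promoters of the table. Pcdh8 carried TATAAA with its first base 30 bases before the start, and Pcdh15 carried it 33 bases before, while the other 7 of the 9 non-clustered members in the table had none. Over all promoters of the same length 12.4% held it. CGCT was present in all 9 windows, with 5 matches in Pcdh8, 3 in Pcdh19 and 1 in Pcdh20, and in 55.7% of all promoters. The word contains a CG pair, and most of these windows held more CG pairs than the median of 6 over all promoters. Pcdh8 had 11, Pcdh19 had 16 and Pcdh18 the most with 23, while Pcdh15 had 6 and Pcdh20 had 3. The share of 55.7% was not matched for CG pairs, so enrichment of CGCT was not tested. TAATTA, a homeodomain word, was found in 0 of the 9 and in 4.84% of all promoters. None of these matches shows binding or control.

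The delta2 protocadherins, a group of non-clustered genes that share short conserved stretches of their cytoplasmic tails, include Pcdh8, Pcdh10, Pcdh17, Pcdh18 and Pcdh19. Pcdh8, also called arcadlin, is known in neurons as an activity-regulated protein that removes N-cadherin from the surface. It stood at 7.64, 8.82 and 8.92 on the Fezf1-/- arrays, against 7.88, 7.95 and 7.95 on the Fezf1+/- arrays. Replicates 2 and 3 of the Fezf1-/- cells lay above every Fezf1+/- array and replicate 1 below, so the groups overlapped. Over all arrays the difference was 0.53 (SE 0.34, limma adjusted p = 0.683). Without Fezf1-/- replicate 1 Pcdh8 rose by 0.94 (SE 0.09, limma adjusted p = 0.00443), a signal 1.92-fold higher.

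Pcdh19, an X-linked adhesion gene mutated in a human epilepsy of early childhood, lay on the other side. It stood at 7.35, 7.91 and 7.97 on the Fezf1-/- arrays and at 8.42, 8.35 and 8.44 on the Fezf1+/- arrays, so the groups did not overlap. The mean was 7.74 ± 0.34 in Fezf1-/- cells and 8.40 ± 0.05 in Fezf1+/- cells (SD, n = 3 each). The difference of -0.66 did not pass over all genes (SE 0.18, limma adjusted p = 0.304), nor did that of -0.46 without Fezf1-/- replicate 1 (SE 0.09, limma adjusted p = 0.0535). A fit that weights arrays by their agreement with the others, which called 3.71% of all genes, put Pcdh19 past the threshold at -0.48 (limma adjusted p = 0.0357).

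Pcdh10, known as OL-protocadherin and required for axon growth in the mouse striatum, was low on 1 array in particular. Its values were 6.54, 7.52 and 7.47 in Fezf1-/- cells and 7.63, 7.67 and 7.84 in Fezf1+/- cells. The difference was -0.54 (SE 0.28, limma adjusted p = 0.607) and, without Fezf1-/- replicate 1, -0.22 (SE 0.10, limma adjusted p = 0.364). Pcdh17, which acts in axon extension along other axons, differed less. It had 8.51, 8.82 and 9.0 in Fezf1-/- cells and 8.92, 8.87 and 9.19 in Fezf1+/- cells, overlapping ranges with a difference of -0.22 (SE 0.16, limma adjusted p = 0.711), or -0.08 without Fezf1-/- replicate 1.

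Pcdh18, the delta2 member known to bind the adaptor Dab1, was set by a single array. It stood at 9.99, 6.37 and 6.16 on the Fezf1-/- arrays and at 6.36, 6.92 and 6.26 on the Fezf1+/- arrays. Its difference was 0.99 with all arrays (SE 1.03, limma adjusted p = 0.77) and turned to -0.25 without Fezf1-/- replicate 1 (SE 0.20, limma adjusted p = 0.602). The array with the high Pcdh18 value is the one on which all 11 mesenchyme and bone markers, all 9 endothelial markers and all 10 myeloid markers were highest. Their part in the Pcdh18 value was not tested.

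**Figure D1:**
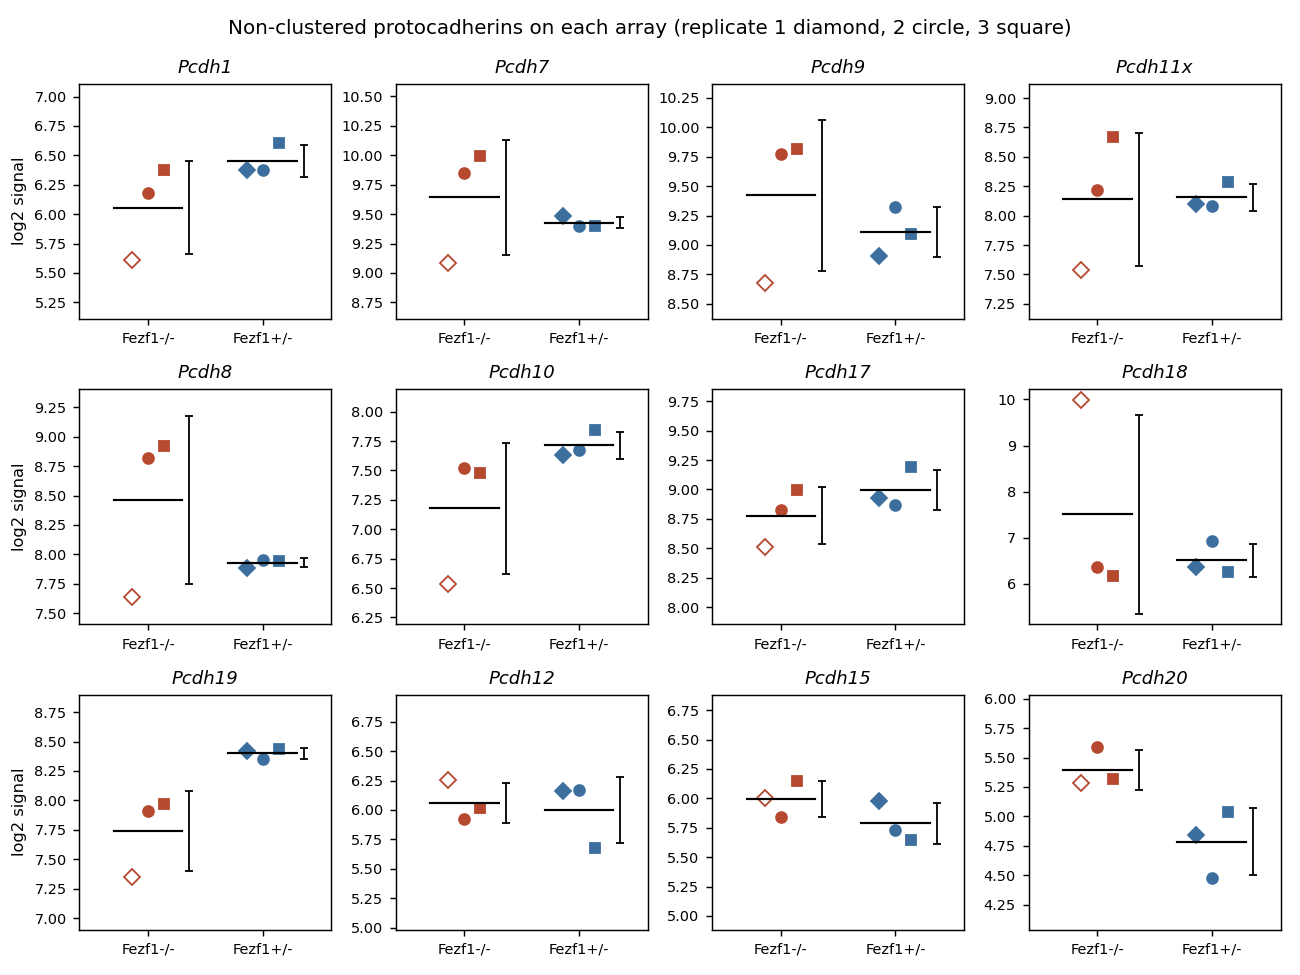
The log2 signal of the 12 non-clustered protocadherins on each array, with Fezf1-/- cells on the left and Fezf1+/- cells on the right. Horizontal lines are means and the bars beside them SD (n = 3), and the axes differ between genes but each spans at least 2 units. The open diamond, Fezf1-/- replicate 1, lies lowest of the 6 arrays for 8 genes and highest for Pcdh18 and Pcdh12.

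The delta1 protocadherins have longer extracellular parts and a conserved cytoplasmic motif that binds protein phosphatase 1. In 3 of the 4, Pcdh7, Pcdh9 and Pcdh11x, replicate 1 lay below every other array and the mean of replicates 2 and 3 above the Fezf1+/- mean. Pcdh7 stood at 9.09, 9.85 and 9.99 in Fezf1-/- cells, against 9.48, 9.40 and 9.40 in Fezf1+/- cells. The difference was 0.22 with all arrays (SE 0.24, limma adjusted p = 0.787) and 0.49 without Fezf1-/- replicate 1 (SE 0.10, limma adjusted p = 0.0526). The SD was 0.05 between the 3 Fezf1+/- arrays and 0.49 between the 3 Fezf1-/- arrays.

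Pcdh9, a member expressed widely in the nervous system, had 8.68, 9.77 and 9.81 in Fezf1-/- cells and 8.90, 9.33 and 9.10 in Fezf1+/- cells. The difference was 0.31 with all arrays (SE 0.33, limma adjusted p = 0.771) and 0.68 without Fezf1-/- replicate 1 (SE 0.14, limma adjusted p = 0.0583). A second probe set of Pcdh9 gave 8.57, 9.55 and 9.60 in Fezf1-/- cells and 8.79, 9.14 and 8.92 in Fezf1+/- cells, the same ordering of arrays. The labelled RNA is the same, so this is a second reading of 1 measurement and not a replicate.

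Pcdh11x, an X-linked gene, had 7.54, 8.21 and 8.67 in Fezf1-/- cells and 8.10, 8.08 and 8.29 in Fezf1+/- cells. Its difference of -0.02 (SE 0.28, limma adjusted p = 0.987) turned to 0.28 without Fezf1-/- replicate 1 (SE 0.15, limma adjusted p = 0.415). Pcdh1, best known from airway epithelium, had 5.61, 6.18 and 6.37 in Fezf1-/- cells and 6.37, 6.37 and 6.61 in Fezf1+/- cells. It was the delta1 gene with the most negative difference, -0.40 (SE 0.21, limma adjusted p = 0.617), or -0.17 without Fezf1-/- replicate 1, and it passed in neither.

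Of the other non-clustered genes, Pcdh20 was higher on every Fezf1-/- array. It stood at 5.28, 5.59 and 5.32 in Fezf1-/- cells and at 4.84, 4.48 and 5.04 in Fezf1+/- cells. The mean was 5.40 ± 0.17 in Fezf1-/- cells and 4.79 ± 0.28 in Fezf1+/- cells (SD, n = 3 each). The difference was 0.61 (SE 0.17, limma adjusted p = 0.328). These signals are low, since the lower quartile of the arrays lay between 4.30 and 4.44, and the size of such a difference depends on the authors' background estimate. Leaving out Fezf1-/- replicate 1 hardly moved it, to 0.67 (limma adjusted p = 0.132), and with array weights it was 0.76 and past the threshold (limma adjusted p = 0.0493).

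Pcdh15, which forms the tip link of hair cells together with Cdh23, had 6.00, 5.84 and 6.15 in Fezf1-/- cells and 5.98, 5.73 and 5.64 in Fezf1+/- cells. These overlapped, and the difference was 0.21 (SE 0.13, limma adjusted p = 0.671). The annotation ties that probe set to cDNA clones only. A second Pcdh15 probe set, annotated with RefSeq transcripts, differed by 0.02 between the group means, and by -0.21 without Fezf1-/- replicate 1, where the probe set used here gave 0.21. Pcdh12, an endothelial protocadherin also called VE-cadherin-2, had 6.25, 5.92 and 6.01 in Fezf1-/- cells and 6.16, 6.17 and 5.68 in Fezf1+/- cells, a difference of 0.06 (SE 0.17, limma adjusted p = 0.919) that turned to -0.04 without Fezf1-/- replicate 1. Its highest value lay on Fezf1-/- replicate 1, the array with the highest endothelial markers, but only 0.09 above the next array.

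**Figure D2:**
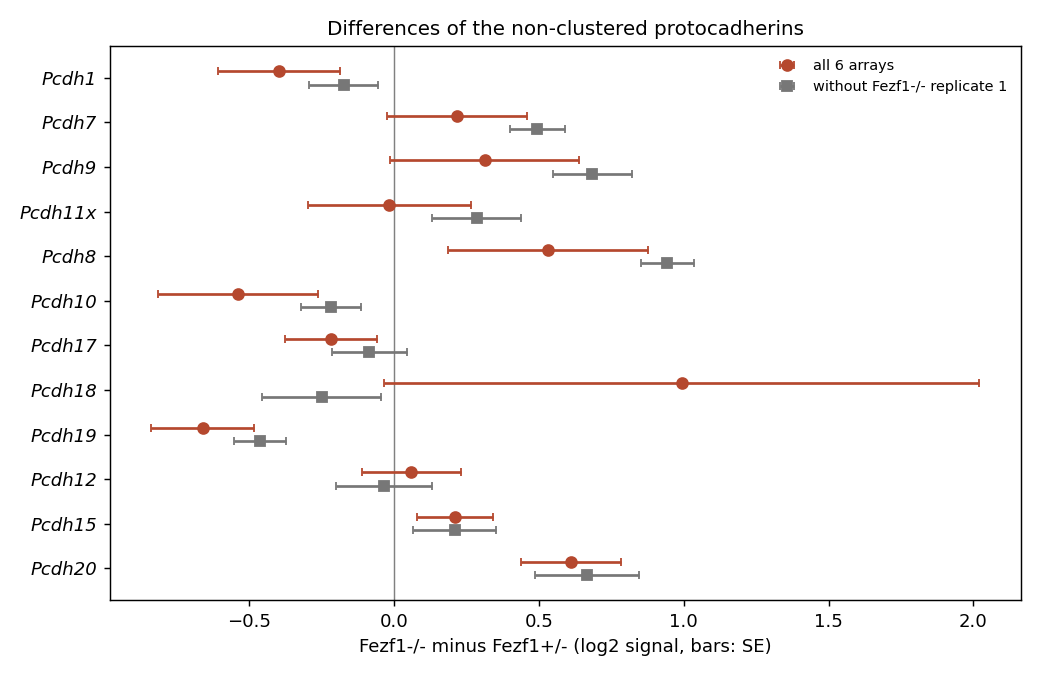
Difference between Fezf1-/- and Fezf1+/- cells in log2 signal for the 12 non-clustered protocadherins (bars: SE from limma), with all 6 arrays (circles) and without Fezf1-/- replicate 1 (squares). Pcdh8 lies at 0.53 and 0.94 in the 2 fits, Pcdh19 at -0.66 and -0.46, and Pcdh18 changes from 0.99 to -0.25.

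Among the clustered beta genes, which are each encoded by a single exon with a promoter of its own, no member was called in either fit. The fits called 2.66% of all genes without Fezf1-/- replicate 1 and 0.552% with all arrays. Negative differences were found in 17 of 22, or 77.3%, where 45.2% of all genes had one, and the median was -0.12. Without Fezf1-/- replicate 1 they numbered 14 of 22, where 44.7% of all genes had one, and the median was -0.03. No beta gene had an unadjusted p below 0.05 with all arrays, beside 4.23% of all genes on the higher and 5.25% on the lower side. In 3 beta genes the groups did not overlap, all on the lower side, beside 8.77% of all genes.

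Pcdhb1, the first gene of the beta cluster, had the largest difference of the beta genes in either fit. It stood at 7.37, 9.06 and 9.0 in Fezf1-/- cells and at 9.28, 9.36 and 9.94 in Fezf1+/- cells. Every Fezf1-/- array was below every Fezf1+/- array, and replicate 1 was far below the rest. The difference was -1.05 (SE 0.49, limma adjusted p = 0.569), or -0.49 without Fezf1-/- replicate 1 (SE 0.20, limma adjusted p = 0.29). On the same array the markers of mature olfactory neurons were at their lowest, and their part in the Pcdhb1 value was not tested.

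Pcdhb17 had the smallest p-value of the beta genes with all 6 arrays. It had 6.30, 6.73 and 6.70 in Fezf1-/- cells and 6.75, 6.97 and 7.04 in Fezf1+/- cells, a difference of -0.34 (SE 0.15, limma adjusted p = 0.554), or -0.20 without Fezf1-/- replicate 1. Pcdhb16 had 7.78, 8.29 and 8.44 in Fezf1-/- cells and 8.25, 8.39 and 8.56 in Fezf1+/- cells, and Pcdhb7 had 7.85, 7.44 and 7.92 in Fezf1-/- cells and 7.94, 7.96 and 7.82 in Fezf1+/- cells. Their differences were -0.23 (limma adjusted p = 0.732) and -0.17 (limma adjusted p = 0.741), and both overlapped. They were -0.03 for Pcdhb16 and -0.22 for Pcdhb7 without Fezf1-/- replicate 1, and -0.02 for Pcdhb7 without Fezf1-/- replicate 2. Pcdhb16 and Pcdhb7 have high signals within the cluster, which depend on the probes as well as on the transcripts and give no order of abundance.

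A few further beta genes are named after their values were seen. Pcdhb14 had 4.83, 5.01 and 4.96 in Fezf1-/- cells and 5.01, 5.42 and 5.16 in Fezf1+/- cells, groups that barely separate at 5.01 (difference -0.27, limma adjusted p = 0.588). Pcdhb3 differed by 0.16 with all arrays and by 0.32 without Fezf1-/- replicate 1 (SE 0.11, limma adjusted p = 0.212), its values being 6.36, 6.84 and 6.81 in Fezf1-/- cells and 6.65, 6.43 and 6.44 in Fezf1+/- cells. Pcdhb9 had a low value on replicate 1 of each genotype, with 4.85, 5.97 and 5.96 in Fezf1-/- cells and 5.34, 6.03 and 6.07 in Fezf1+/- cells. Pcdhb2 and Pcdhb20 hardly varied, with SDs of 0.05 for both in Fezf1-/- cells and of 0.07 and 0.06 in Fezf1+/- cells.

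Apart from Pcdhb1, the beta differences lay between -0.34 and 0.16 with all arrays and between -0.24 and 0.32 without Fezf1-/- replicate 1. Along the cluster, the 11 genes from Pcdhb1 to Pcdhb11 had a median difference of -0.03 with 7 negative, and the 11 from Pcdhb12 to Pcdhb22 a median of -0.22 with 10 negative. Without Fezf1-/- replicate 1 these medians were 0.04 and -0.13, with 4 and 10 negative. This split was chosen after the values were seen and was not tested. Beta genes are similar in sequence, so a probe set of one may also bind transcripts of another.

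**Figure D3:**
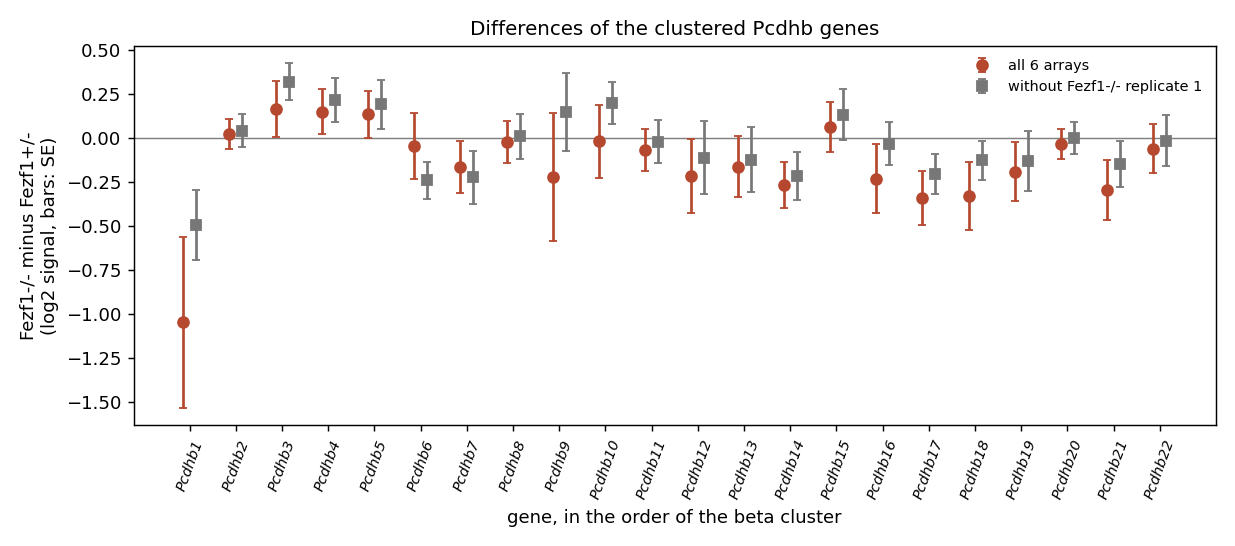
Difference between Fezf1-/- and Fezf1+/- cells in log2 signal for the 22 beta genes in their order along the cluster (bars: SE from limma), with all 6 arrays (circles) and without Fezf1-/- replicate 1 (squares). Pcdhb1 lies lowest at -1.05 and -0.49, and the other 21 genes stay between -0.34 and 0.32 in the 2 fits.

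The alpha cluster was read by 1 probe set that the annotation assigns to 14 genes, from Pcdha1 to Pcdhac2, whose transcripts share their last exons. Its values were 6.87, 8.07 and 8.07 in Fezf1-/- cells and 8.06, 7.93 and 8.25 in Fezf1+/- cells. Replicate 1 was again the low array, and replicates 2 and 3 averaged 8.07, within the range of the Fezf1+/- arrays. The difference was -0.41 with all arrays and -0.01 without Fezf1-/- replicate 1, given as values with no test because the probe set has no single gene.

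Clustered and non-clustered members were set side by side. The non-clustered genes had a median difference of 0.14, with 7 positive and 5 negative, and the clustered genes one of -0.12, with 5 positive and 17 negative. Without Fezf1-/- replicate 1 the medians were 0.09 and -0.03. The non-clustered differences were spread more widely, from -0.66 to 0.99 with all arrays and from -0.46 to 0.94 without that array. The median size of a difference with all arrays, regardless of sign, was 0.35 in non-clustered genes, 0.16 in clustered genes and 0.14 in all genes. These sizes were 0.27, 0.14 and 0.13 without Fezf1-/- replicate 1. The 2 classes were not matched for signal, with array medians of 7.44 to 7.90 for non-clustered and 6.28 to 6.61 for clustered genes. With all arrays the Fezf1-/- values lay wholly above in 1 of 12 non-clustered and 0 of 22 clustered members, beside 9.72% of all genes, and wholly below in 2 and 3, beside 8.77%. With Fezf1-/- replicate 1 left out they lay wholly above in 4 non-clustered members and 1 clustered member, beside 19.9% of all genes, and wholly below in 2 and 4, beside 16.3%. No test was made of this contrast, since genes are not replicates.

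The spread between Fezf1-/- arrays also differed. Its median SD was 0.44 in non-clustered and 0.21 in clustered genes, beside 0.15 and 0.16 between Fezf1+/- arrays. Fezf1-/- replicate 1 had the lowest of the 6 values in 8 of 12 non-clustered and 13 of 22 clustered members, or 61.8% of the family, beside 32.7% of all genes. It had the highest value in 3 members, Pcdh12, Pcdh18 and Pcdhb6, or 8.82% of the family, beside 29.2% of all genes. Relative to the mean of the other Fezf1-/- arrays it lay a median of -0.63 for non-clustered genes, -0.19 for clustered genes and -0.05 for all genes. Values furthest below were those of Pcdhb1 (-1.66), Pcdh8 (-1.24), Pcdh9 (-1.12) and Pcdhb9 (-1.11), while Pcdh18 lay 3.73 above. The markers of immature olfactory neurons averaged 9.67 on that array. They averaged 10.67 and 10.68 on Fezf1-/- replicates 2 and 3 and 10.32 to 10.50 on the Fezf1+/- arrays. Their part in these values was not tested.

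**Figure D4:**
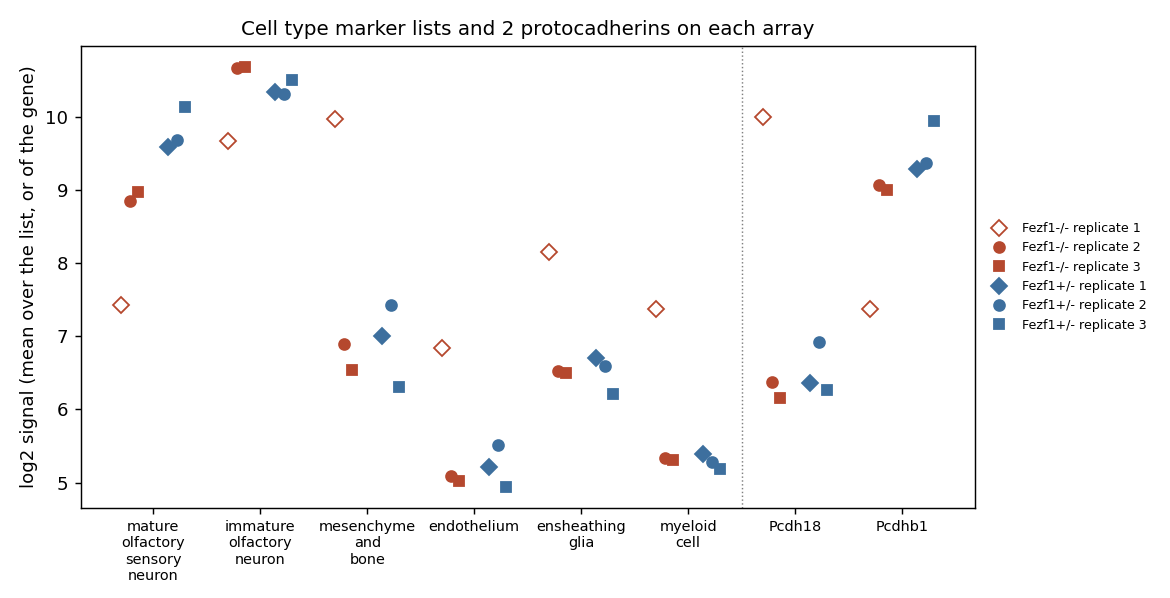
Mean log2 signal of 6 cell type marker lists on each array, and the signals of Pcdh18 and Pcdhb1, with Fezf1-/- arrays left of Fezf1+/- arrays in each column. On Fezf1-/- replicate 1 (open diamonds) the mesenchyme, endothelial, glial and myeloid lists and Pcdh18 lie highest, and the 2 neuronal lists and Pcdhb1 lowest.

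Other genes of the cadherin superfamily were mostly uncalled too. Of 22 classical and related cadherins limma called 0 with all arrays, beside 0.552% of all genes, and 2 had a negative difference with an unadjusted p below 0.05, beside 5.25% of all genes. Cdh18, a type II cadherin of neurons, averaged 7.0 ± 1.06 in Fezf1-/- cells and 8.53 ± 0.21 in Fezf1+/- cells (SD, n = 3 each). It differed by -1.53 (SE 0.51, limma adjusted p = 0.429). Without Fezf1-/- replicate 1 Cdh18 fell by 0.92 (SE 0.14, limma adjusted p = 0.0226) and was the only one of the 22 called, in the fit that called 2.66% of all genes. The list's median was 0.08 with all arrays and -0.01 without that array.

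Among 17 large or atypical cadherins, which comprise Fat, Dachsous, flamingo, calsyntenin and cadherin-related (Cdhr) genes and the receptor kinase gene Ret, 0 were called, beside 0.552% of all genes. At an unadjusted p below 0.05 stood 1 on the higher side, beside 4.23% of all genes. That gene was Dchs1, a ligand of Fat cadherins in planar polarity, at 0.46 (SE 0.14, limma adjusted p = 0.379). Clstn3 had the next smallest p, at -0.57 (limma adjusted p = 0.595). Without Fezf1-/- replicate 1, 0 of the 17 were called, beside 2.66% of all genes. Dchs1 at 0.31 then had an unadjusted p below 0.05 on the higher side, beside 7.63% of all genes. Fat1, at 0.27 with all arrays, had one on the lower side at -0.36 (limma adjusted p = 0.213), beside 8.68%. The 7 desmosomal cadherins and the 7 catenins had 0 called by limma in either fit, beside 0.552% of all genes with all arrays and 2.66% without Fezf1-/- replicate 1. With all arrays none of the 14 had an unadjusted p below 0.05, beside 4.23% of all genes on the higher and 5.25% on the lower side. Their medians were both -0.06. Dsc3, a desmocollin, differed by -0.49 and Ctnnd1, the catenin p120, by 0.21. The difference of Ctnnd1 was 0.07 without Fezf1-/- replicate 1, and that of Dsc3 -0.86 (SE 0.31, limma adjusted p = 0.249). In that fit 2 of the 7 desmosomal genes, Dsc3 and the desmocollin gene Dsc2 at -0.51 (SE 0.12, limma adjusted p = 0.0877), had an unadjusted p below 0.05 on the lower side, beside 8.68% of all genes, and 0 catenins did.

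Genes that act with protocadherins had differences of a median size of 0.10 (cluster regulators), 0.10 (signalling partners) and 0.08 (tip link complex), beside 0.14 in all genes. The 18 measured regulators of the clusters, which include the insulator gene Ctcf, cohesin and DNA methylation enzymes, had a median of -0.07. Limma called 0 in either fit, beside 0.552% of all genes with all arrays and 2.66% without Fezf1-/- replicate 1. With all arrays 1 was lower at an unadjusted p below 0.05, beside 5.25% of all genes. That gene was Dnmt3a, a de novo DNA methyltransferase, at -0.39 (SE 0.13, limma adjusted p = 0.447), and Stag2, a cohesin subunit, had the next smallest p at -0.16. The 20 signalling partners, such as Ptk2b, a relative of focal adhesion kinase, the WAVE complex and the phosphatase that Pcdh7 binds, had a median of -0.04 with 0 called, beside 0.552% of all genes. At an unadjusted p below 0.05 stood 0 partners, beside 4.23% of all genes on the higher and 5.25% on the lower side. That median turned to 0.02 without Fezf1-/- replicate 1, where 0 were called, beside 2.66% of all genes. In that fit 1 partner had an unadjusted p below 0.05 on the higher side, beside 7.63% of all genes. It was Cyfip2, at 0.33 (SE 0.11, limma adjusted p = 0.217), against -0.05 with all arrays. With all arrays the phosphatase gene Ppp1ca differed by -0.27 (limma adjusted p = 0.545) and the kinase gene Fyn by 0.16. The 9 genes of the hair cell tip link complex other than Pcdh15 had a median of 0.07 with all arrays and 0 called, beside 0.552% of all genes. They had 0 at an unadjusted p below 0.05, beside 4.23% of all genes on the higher and 5.25% on the lower side. Ush1g stood at 0.21 and Tmc2 at 0.11. Part of this list had low signals, so a lack of calls there says little. Over all 6 arrays Tmc1 averaged 3.72, Tmc2 4.43 and Clrn1 4.51, where the lower quartile of the arrays lay between 4.30 and 4.44. Ush1g averaged 6.27 and Myo7a 6.40.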

How the data were processed

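The authors deposited log2 signals per probe set and array, for which the submitters' processing notes name GCRMA and the Affymetrix Expression Console. Versions, filters and genome build are not given in the sources used here, and the log base was taken as 2 because values reach 14.5, above the 11.1 that a natural log of a 16-bit reading allows. GCRMA subtracts an estimated background, which sets differences between low values. Array medians lay between 5.82 and 5.95, and no further normalisation was applied. The 3 arrays per group limit the precision.

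Of 35557 probe sets, 21789 had 1 gene symbol in the platform annotation of 2016, 1621 several and 12147 were not listed. Symbols were updated by Entrez number to RefSeq names of GRCm38.p6 (21698 matched), and each gene was read from the probe set whose mean across the 6 arrays was highest. The genotypes were compared on all genes by limma 3.58.1 (R 4.3.3). Exact tests of 3 against 3 cannot go below 0.1 and were not run. Tested on simulated data with 200 of 19938 genes changed, the 6-array fit recovered 49% of 2-fold and 81% of 4-fold changes. Of its 138 calls 8 were false. The simulated noise was independent between genes, so it held no array that shifts many genes together. Changes below 2-fold were not simulated.

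The members, gene lists and named genes were chosen with earlier results of these data known. Named were all non-clustered members, the 3 beta genes with the highest mean and the 2 with the smallest p, members called with all arrays or without Fezf1-/- replicate 1, and of each other list up to 4 called genes or the 2 with the smallest p. For the other lists, not every gene of this rule is given in the text. Genes outside this rule are said to be chosen after their values were seen. Of the marker lists fixed, those of vomeronasal neurons, progenitors, sustentacular, basal and erythroid cells are reported with the other observations. Counts of negative differences and of groups that do not overlap without Fezf1-/- replicate 1 were added after seeing the data.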

Additional observations from a re-analysis of the deposited data

How the results depend on the processing

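The number of members called, 0, stayed at 0 under quantile normalisation, median centring, the filter to genes above the median mean (18 members left), the mean of probe sets, trend and robust eBayes, the unmoderated test and the replicate block, and became 3 with array weights. Over all genes, 110 were called, 24 with that filter, 740 with array weights, 8 with the unmoderated test and 88 with the replicate block. Leaving out 1 array at a time gave 40 to 531 genes, with 40, 51, 55 and 45 without Fezf1-/- replicates 2 and 3 and Fezf1+/- replicates 2 and 3, and 531 without Fezf1-/- replicate 1. It gave 0 to 1 member, and 0 to 1 gene of the other lists. Median differences ranged from -0.15 to -0.03 for clustered and from 0.06 to 0.17 for non-clustered genes, and that of Fezf1 from -5.49 to -5.13.

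Pcdh11x turned to 0.016 with quantile normalisation and to 0.21 with array weights, Pcdh12 to -0.076 and Pcdh18 to -0.19 with array weights. Leaving out an array gave -0.28 to 0.28 for Pcdh11x, -0.10 to 0.14 for Pcdh12 and -0.25 to 1.67 for Pcdh18. Of 220 repeated values of the 16 named members, 207 kept direction and side of the threshold. Part of this count was fixed in advance. The filter, trend and robust eBayes, the unmoderated test and the replicate block leave each difference unchanged, and all 16 members started uncalled. The mean of probe sets can change a difference only in Pcdh9 and Pcdh15, the only members with more than 1 probe set of their own. The causes of the changes were not tested. Same-numbered arrays deviated with correlations of 0.23, -0.33 and 0.54. Whether the numbers pair the samples cannot be decided from so few arrays per group.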

Other observations

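Beside the protocadherins, markers of further cell types were read on each array. The 5 measured vomeronasal neuron markers averaged 8.60, 9.45 and 8.96 in Fezf1-/- cells and 8.29, 8.40 and 8.30 in Fezf1+/- cells, so the list means did not overlap. The genes were mixed, with 3 positive and 2 negative differences from -0.21 to 2.15 and a median of 0.43 with all arrays. In that fit 1 of the 5 was called as higher (limma adjusted p = 0.0201), beside 0.552% of all genes called in either direction. The fit without Fezf1-/- replicate 1 called 2 of the 5 as higher, beside 0.993% of all genes. In 2 of the 5 the Fezf1-/- values lay wholly above, beside 9.72% of all genes. Without Fezf1-/- replicate 1 the differences lay between 0.19 and 2.46. The 7 progenitor markers averaged 8.65 to 8.97 in Fezf1-/- cells and 8.67 to 8.77 in Fezf1+/- cells. The 8 sustentacular markers averaged 8.62 on Fezf1-/- replicate 1, 7.78 and 7.75 on the other Fezf1-/- arrays and 8.21 to 8.33 on the Fezf1+/- arrays. The 5 basal cell markers averaged 7.39 to 8.19 in Fezf1-/- cells and 6.80 to 7.75 in Fezf1+/- cells. The 3 erythroid markers averaged 4.51 to 6.07 in Fezf1-/- cells and 4.53 to 4.78 in Fezf1+/- cells. Their list mean was highest on Fezf1-/- replicate 1, but only 2 of the 3 genes had their highest value there. Relative to the Fezf1+/- means, the median of the 3 genes on that array was 0.17 and the lowest -0.27. The 7 ensheathing glia markers averaged 8.16 on Fezf1-/- replicate 1, against 6.21 to 6.70 on the other arrays, and 6 of the 7 were highest there.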
